A study of Homo sapiens with 7 samples.

Results

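A list of 29 genes of fatty acid oxidation was examined for peaks of the nuclear receptor PPARα in HepG2, an established human liver cancer cell line. The genes were taken from a fixed list by symbol, and all 29 were found among the 19970 protein-coding genes that the RefSeq gene table (GRCh38.p14) places on chromosomes 1 to 22 and X. A peak was assigned to a gene when its summit lay inside the gene's span or within 50 kb of it. In all, 285 peaks in 171 separate regions met this rule, out of 23805 and 36302 peaks listed for PPARα, 24505 and 27544 listed for PPARα+ERα, and 17457 and 23302 listed for PPARα+ERβ.

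Every analysed library came from cells transfected with a PPARα expression vector and given the PPARα agonist WY14643 (spelled both Wy13643 and Wy14643 in the labels) at 10 µM for 2 h, from 48 h after transfection. The PPARα group received nothing more. The PPARα+ERα group also carried a vector for estrogen receptor alpha and was first exposed to its agonist PPT at 10 nM for 45 min, and the PPARα+ERβ group carried estrogen receptor beta and was first exposed to its agonist DPN at 10 nM for 45 min. Chromatin was precipitated with an antibody to PPARα, so the peaks are those of an overexpressed receptor together with any of the cells' own. Each group has 2 libraries. The titles of a group's libraries share their last part and no label calls them separate cultures, so the spread between them may be technical. At regions they shared, fragment numbers of a group's libraries differed by 1.21 (PPARα), 0.598 (PPARα+ERα) and 0.703 (PPARα+ERβ) times counting noise (mean squared difference over that of counting alone), and the values between groups were 0.877 to 1.89 for PPARα with PPARα+ERβ libraries and 1.67 to 3.74 for either of these with PPARα+ERα libraries. Whether material is shared between libraries was not tested. One further sample, without antibody, was not analysed here.

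Fatty acid oxidation shortens fatty acids by pairs of carbons to yield acetyl-CoA and reduced electron carriers. Long chains enter mitochondria as carnitine esters and pass through repeated rounds of dehydrogenation, hydration, dehydrogenation and thiolysis, while peroxisomes handle very long and branched chains and the endoplasmic reticulum begins omega-oxidation. In liver, PPARα bound as a dimer with RXR to direct repeats of AGGTCA is a classical activator of many of these genes.

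Among the genes with promoter sequence on hand, a called peak reached a promoter at ETFA, which encodes the alpha subunit of the electron transfer flavoprotein, the carrier that takes electrons from the acyl-CoA dehydrogenases. RefSeq promoter sequence (GRCh38.p14) was on hand for 20 of the 29 genes, in 25 entries. ETFA's was the only one of the 25 in which a called peak covered any of the 250 bases before the start. The same count over the promoters of all genes is not given here, so whether this is few was not tested. The promoters of 3 genes are shown because, among those 20 genes, their starts lie closest to a region that both libraries of some group had called: ETFA, ACADM (medium-chain acyl-CoA dehydrogenase) and ACADL (long-chain acyl-CoA dehydrogenase). Each is given 5′ to 3′ on the gene's own strand and ends at the base before the start. Capitals mark the 107 bases that lay inside the called peaks of both PPARα+ERα libraries.
ETFA, chr15:76311470-76311719, minus strand: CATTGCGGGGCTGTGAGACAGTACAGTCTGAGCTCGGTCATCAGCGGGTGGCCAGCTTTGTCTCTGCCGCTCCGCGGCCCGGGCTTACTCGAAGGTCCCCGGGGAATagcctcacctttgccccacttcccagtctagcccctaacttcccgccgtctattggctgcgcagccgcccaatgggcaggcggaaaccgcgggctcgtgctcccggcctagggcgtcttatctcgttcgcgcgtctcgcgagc
ACADM, chr1:75724459-75724708, plus strand: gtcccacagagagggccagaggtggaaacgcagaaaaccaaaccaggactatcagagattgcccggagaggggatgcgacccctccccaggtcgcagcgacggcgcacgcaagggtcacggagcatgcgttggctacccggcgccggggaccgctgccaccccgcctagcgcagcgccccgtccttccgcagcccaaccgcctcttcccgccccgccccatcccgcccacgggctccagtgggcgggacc
ACADL, chr2:210225448-210225697, minus strand: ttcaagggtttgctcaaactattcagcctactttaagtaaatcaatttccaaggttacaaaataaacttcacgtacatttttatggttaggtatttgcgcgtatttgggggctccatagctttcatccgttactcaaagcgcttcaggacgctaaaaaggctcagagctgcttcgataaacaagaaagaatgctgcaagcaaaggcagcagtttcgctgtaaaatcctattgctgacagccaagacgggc
The ETFA and ACADM stretches were rich in G and C (65.6 and 70.8%), that of ACADL less so (42.0%). The hexamer AGGTCA was searched on both strands. It occurred in 0 of the 25 member promoters and in 10.5% of the 22155 promoter entries of protein-coding genes. Its direct repeat spaced by 1 base (DR1, the arrangement PPARα is known to favour) and its inverted repeat spaced by 3 bases (the estrogen response element, searched without its outer bases) were also absent from the 25, and occurred in 0.0135 and 0.0271% of all entries. These exact letters were looked for in 250 bases only, and no sequence under the other peaks was searched.

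Peaks lay inside or within 50 kb of 28 of the 29 genes in at least 1 library. A peak was found for 22 and 25 of the 29 genes in PPARα libraries 1 and 2, 19 and 22 in those of PPARα+ERα, and 19 and 24 in those of PPARα+ERβ. In all 6 libraries a peak was found for 11 genes: ACADM, HADHA, HADHB, ACADL, SLC25A20, ACOX2, ECI2, DECR1, ACOT1, ACOT2 and ECI1. CYP4A11 had none in any library. The shares of all genes with a peak are not given here. The mean number of peaks per gene was 1.72 and 2.90 for PPARα, beside 1.54 and 2.59 over all protein-coding genes. It was 1.48 and 1.62 beside 1.61 and 1.81 for PPARα+ERα, and 1.38 and 1.79 beside 1.22 and 1.74 for PPARα+ERβ.

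**Figure D1:**
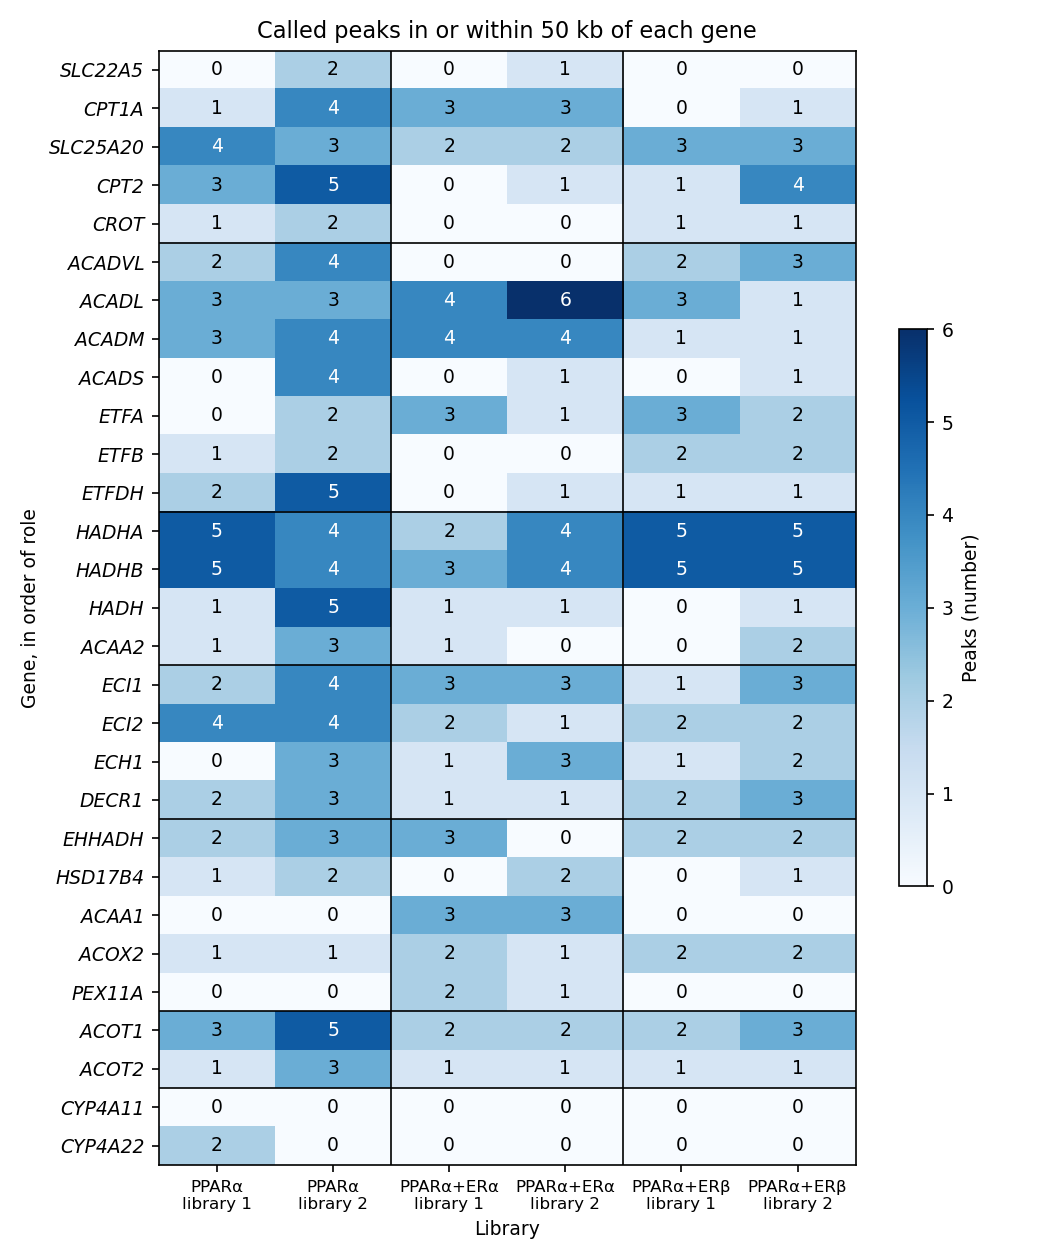
Number of called peaks inside or within 50 kb of each of the 29 genes (rows, ordered by role with lines between roles) in each of the 6 libraries (columns). ACADL reached 6 peaks in PPARα+ERα library 2, CYP4A11 was at 0 throughout, and ACAA1 and PEX11A had peaks in the PPARα+ERα libraries only.

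A region, formed by merging peaks that overlap in any libraries, was called occupied in a group when both of its libraries had a peak there. With PPARα, 19 of the 29 genes (65.5%) had an occupied region inside or within 50 kb, beside 60.5% of all 19970 protein-coding genes. With PPARα+ERα the number was 10 (34.5%), beside 38.0%, and with PPARα+ERβ it was 16 (55.2%), beside 46.6%. Longer genes have wider windows, so each gene was also set beside the 1621 to 2376 other protein-coding genes whose span was up to 25% longer or 20% shorter. At their rates 17.4, 10.8 and 13.1 of the 29 would have been occupied in the same order. Each share was within 10 percentage points of its background, and no test was made because the list was chosen with earlier results known. The PPARα and PPARα+ERβ counts rested mostly on peaks over high local background, a quantity described further on, and the PPARα+ERα count did not. With low-background peaks alone the counts in the same order were 5, 9 and 1 (17.2, 31.0 and 3.45%, beside 15.6, 30.5 and 14.0% of all genes), so that PPARα+ERα stood first. A window of 10 kb gave 44.8% beside 34.1% for PPARα, 24.1 beside 21.0% for PPARα+ERα and 24.1 beside 25.3% for PPARα+ERβ. With lists of equal length PPARα+ERβ stood at 55.2% beside 42.1%. Without library 1 or 2 of PPARα+ERα its number was 22 or 19, and without library 1 of PPARα+ERβ that group's number was 24. A single library then sufficed for every gene, and the shares of all genes are not given for these numbers.

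**Figure D2:**
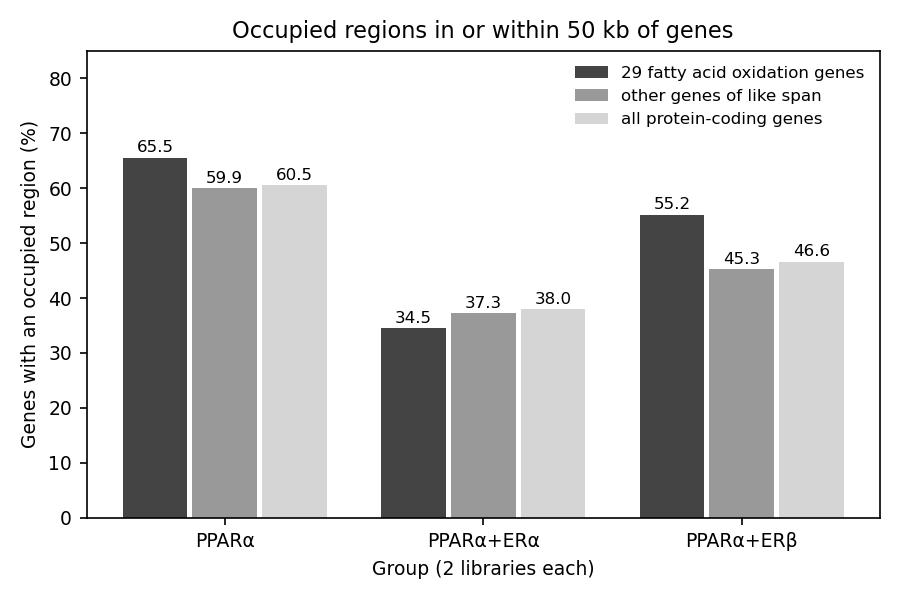
Percentage of genes with an occupied region inside or within 50 kb in each group, for the 29 fatty acid oxidation genes, for other genes of like span and for all protein-coding genes. The dark bars stand at 65.5, 34.5 and 55.2%, each within 10 percentage points of the bars beside it.

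The share of each list that fell in the windows of these genes was 0.185 and 0.215% for PPARα, 0.163 and 0.152% for the PPARα+ERα libraries, and 0.200 and 0.197% for those of PPARα+ERβ. The lowest values were those of both PPARα+ERα libraries. Group means were 0.200% ± 0.0212, 0.158% ± 0.00760 and 0.199% ± 0.00218 (SD, n = 2). An exact permutation test over the 15 ways of pairing 6 libraries gave p = 0.2 (two-sided), in a design whose smallest possible p is 0.0667 and which therefore cannot pass 0.05. Per gene, the mean number of peaks exceeded that of like-span genes 1.27 and 1.22 times for PPARα, 1.04 and 1.02 times for the PPARα+ERα pair, and 1.26 and 1.11 times for the PPARα+ERβ pair (SD 0.0342, 0.0137 and 0.104, n = 2 each; exact permutation p = 0.133 over the same pairings). HADHA and HADHB lie next to each other, as do ACOT1 and ACOT2, so that 17 of the 171 regions counted for 2 genes.

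Fragment numbers and local background at the peaks near these genes were lowest in both PPARα+ERα libraries. The number of fragments stacked at each summit and the local background were recovered from the deposited values. The median summit near a member held 38.5 and 50.5 fragments for PPARα, against 10 and 9 for the PPARα+ERα pair and 35 and 40 for the PPARα+ERβ pair. The local background, as a multiple of the lowest level in the same list, had medians of 19.0 and 18.7 for PPARα, 1.68 and 2.57 for the PPARα+ERα pair, and 17.3 and 11.6 for the PPARα+ERβ pair. The exact permutation p was 0.133 for the fragment medians and 0.0667, the smallest that 15 pairings allow, for the background. Over their whole lists the background medians were 13.5 and 15.7, 1.64 and 1.57, and 9.34 and 8.52. The fragment medians of the whole lists were 35 and 50, 9 and 10, and 27 and 29, so PPARα+ERα was lowest there too. Fragment numbers were not scaled for sequencing depth, which is unknown, as is the control used for peak calling. Their part in these values was not tested. Peaks of PPARα and PPARα+ERβ near fatty acid oxidation genes therefore mostly stood where the peak caller's background was itself high, and those of PPARα+ERα where it was low and few fragments made the call. The part of this difference in the results that follow was not tested beyond the alternative with low-background peaks alone.

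**Figure D3:**
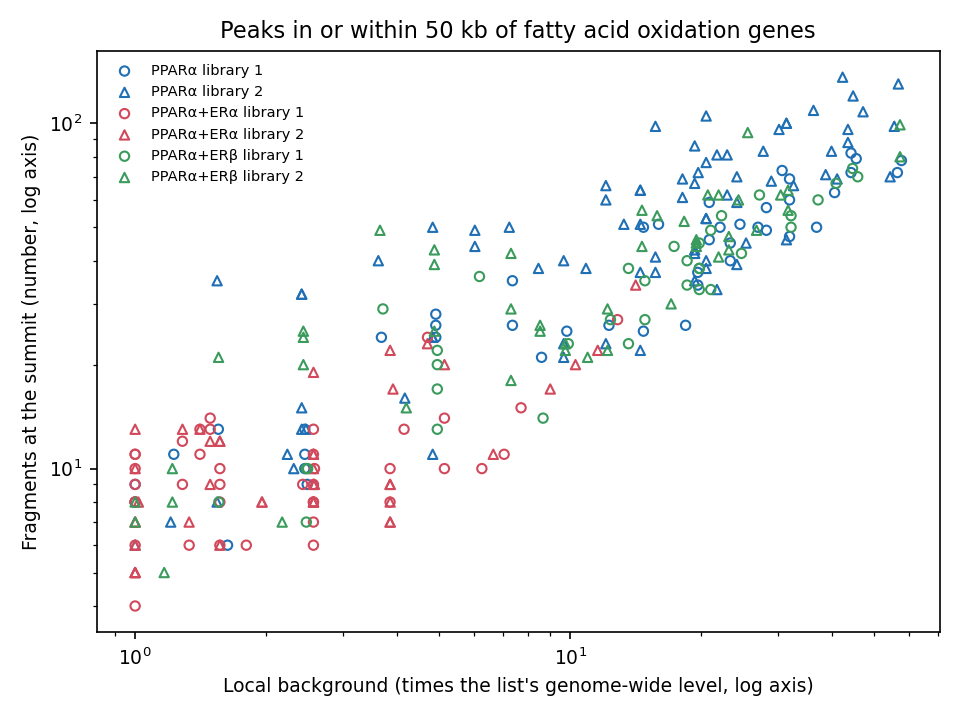
Each point is one of the 285 peaks near a fatty acid oxidation gene, by local background (x, multiple of the list's lowest level, log axis) and fragments at the summit (y, log axis), with colours for groups and shapes for libraries. A called peak must exceed its background, so points rise together by construction; PPARα+ERα points sit at the lower left, with at most 34 fragments.

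Of the 171 regions, 54 were occupied in at least 1 group: 33 in the PPARα group, 16 in the PPARα+ERα group and 18 in the PPARα+ERβ group. PPARα and PPARα+ERβ shared 13, which is 39.4% of the former and 72.2% of the latter. None of the 16 PPARα+ERα regions held a peak in any other library. Over all regions of the genome the shares occupied in both PPARα and PPARα+ERβ were 37.1 and 63.9%, and 4.87% of the regions occupied with PPARα+ERα held a PPARα peak and 9.07% a PPARα+ERβ peak. There were 7 genes, ACADM, ACADL, HADHA, HADHB, SLC25A20, ECI1 and ECI2, that had an occupied region in each of the groups, and 0 regions were occupied in all of the groups. The share of all genes with an occupied region in each group is not given here. Of the occupied gene and region pairs, 30.6% for PPARα, 35.3% for the PPARα+ERα group and 30% for the PPARα+ERβ group lay inside the gene, compared with 26.1, 25.4 and 25.95% for other genes in the same range of span. Among the pairs whose gene start was known (28 of 36, 16 of 17 and 15 of 20), only the ETFA region with PPARα+ERα was within 1 kb of a start. The like share for other genes is not given here.

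**Figure D4:**
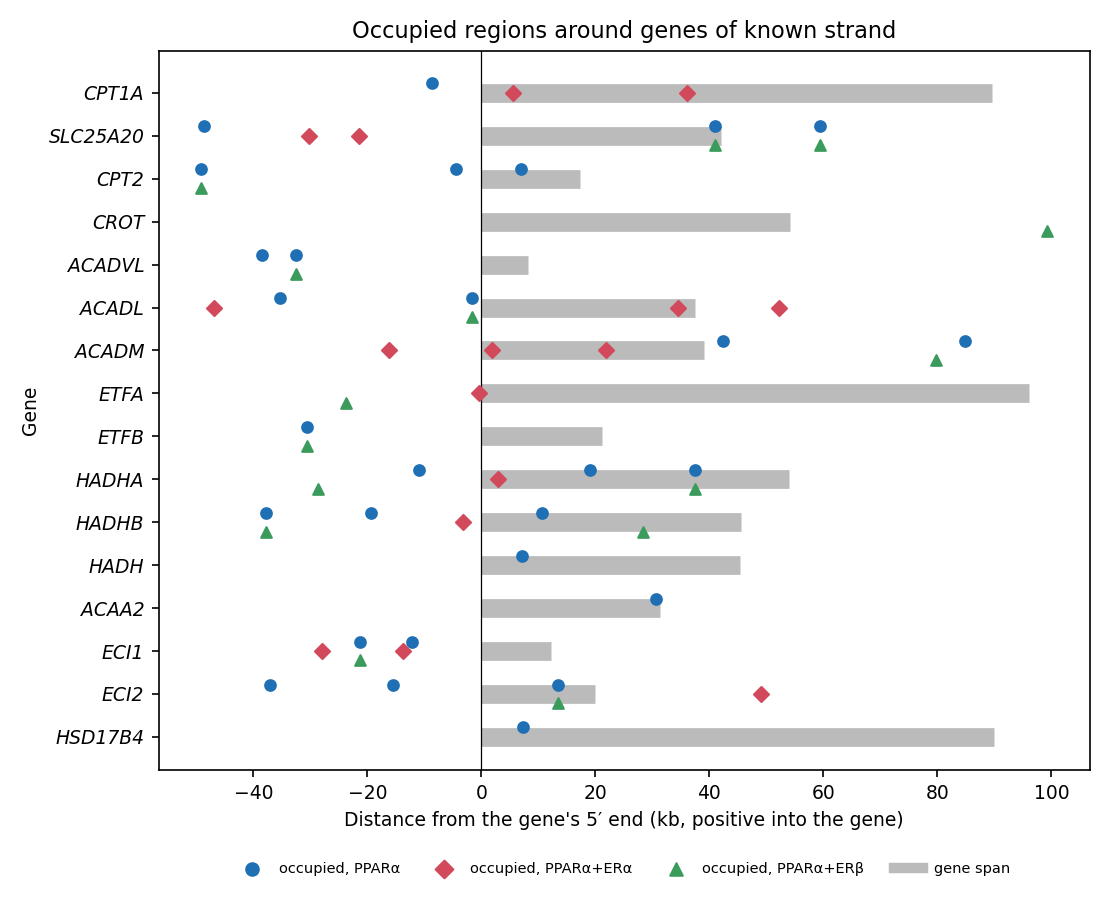
Occupied regions around the 16 fatty acid oxidation genes that have one and whose strand is known, by distance from the gene's 5′ end (x, kb; positive runs into the gene, grey bars show the span). PPARα+ERα diamonds mark no region that another symbol marks, and the symbol nearest a 5′ end is that of ETFA.

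Transport genes came first in the order of the pathway. CPT1A, the outer mitochondrial carnitine palmitoyltransferase that sets the pace of long-chain oxidation, had 1 and 4 peaks in the PPARα libraries, 3 and 3 when ERα was present, and 0 and 1 when ERβ was. A region 8656 bp outside the gene on its 5′ side (chr11:68852733-68853070) held 73 and 96 fragments in the PPARα libraries, at a background of 30.7 and 30.2 times the lowest level, and no peak in the other 4 libraries. Inside CPT1A, 5583 bp from the start, a different region (chr11:68838577-68839009) held 10 and 7 fragments in the PPARα+ERα libraries at the lowest background, with fold 7.91 and 5.64; fold is the authors' ratio of summit to surrounding background, and ranks peaks within 1 list only. Another PPARα+ERα region, 36013 bp into the gene, held 6 and 7 fragments.

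SLC25A20, the carnitine-acylcarnitine carrier of the inner membrane, shared regions between PPARα and PPARα+ERβ. One inside its 3′ part (chr3:48857593-48857984) held 13 and 32 fragments with PPARα and 10 and 25 with PPARα+ERβ, on a background of 2.41 to 2.47 times the lowest level. It had no PPARα+ERα peak. Another, 17476 bp beyond the gene and within PRKAR2A, a regulatory subunit gene of protein kinase A, held 26 and 50 and then 36 and 42 fragments in the same groups. PPARα+ERα regions lay on the opposite side, 21413 and 30308 bp away in ARIH2, a ubiquitin ligase gene, with 6 and 7 and with 10 and 12 fragments. Farther on that side, at 48666 bp, PPARα held 69 and 100 fragments and PPARα+ERβ library 1 held 54.

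CPT2, the inner-membrane carnitine palmitoyltransferase, had occupied PPARα regions at 4426 bp before the gene (11 and 13 fragments) and 6872 bp into it (78 and 130 fragments). Each of these also had a peak in PPARα+ERβ library 2 (20 and 99 fragments) and in neither PPARα+ERα library. The one region of CPT2 occupied with PPARα+ERβ lay 49142 bp away (33 and 46 fragments) and was occupied with PPARα too (34 and 35). CROT, the peroxisomal carnitine octanoyltransferase, had a single occupied region, with PPARα+ERβ (38 and 44 fragments), at 45164 bp and inside ABCB4, a phospholipid transporter gene. SLC22A5, the plasma membrane carnitine transporter, had 2 peaks in PPARα library 2, 1 in PPARα+ERα library 2 and no occupied region.

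Among the acyl-CoA dehydrogenases, ACADM and ACADL had occupied regions in all groups, always in separate places for PPARα+ERα. ACADM held a PPARα+ERα region 1872 bp into the gene (chr1:75726366-75726815), just past the promoter printed above. Its summits stacked 27 and 34 fragments on a background of 12.8 and 14.1 times the lowest level, the tallest of the 16 PPARα+ERα regions. Other PPARα+ERα regions lay 21779 bp into ACADM (10 and 9 fragments) and 16181 bp before it, within SLC44A5 (14 and 9). With PPARα, a region 3476 bp beyond ACADM (chr1:75767012-75767354) held 35 and 40 fragments and had no peak in the other groups. Another, 45836 bp away, held 63 and 83 and was likewise without other peaks. The only ACADM region occupied with PPARα+ERβ lay 40684 bp away (38 and 47 fragments, with 40 in PPARα library 1).

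ACADL showed the closest approach of the PPARα group to a start among genes of known start. A region 1723 bp before the gene (chr2:210226810-210227319) held 59 and 105 fragments with PPARα and 49 and 62 with PPARα+ERβ, at a background between 20.5 and 21.0 times the lowest level, and no peak with PPARα+ERα. Fold was 4.52 and 7.11, and 3.76 and 4.02. PPARα+ERα regions lay 34563 bp into ACADL (8 and 5 fragments) and 14609 bp beyond it, close to an end of KANSL1L (13 and 13 fragments), with a further one 46752 bp away on the 5′ side (6 and 6). On that side too, at 35256 bp, PPARα held 37 and 67 fragments and PPARα+ERβ library 1 held 45. The very-long-chain gene ACADVL had none within the gene: its nearest occupied region, 32433 bp away, held 50 and 81 fragments with PPARα and 54 and 62 with PPARα+ERβ, and both PPARα+ERα libraries had 0 peaks within 50 kb. Another ACADVL region, 38491 bp away in ASGR1, an asialoglycoprotein receptor gene, held 82 and 136 fragments with PPARα and 74 in PPARα+ERβ library 1. ACADS, for short chains, had 4 peaks in PPARα library 2, 1 in PPARα+ERα library 2 and 1 in PPARα+ERβ library 2, and no occupied region.

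Of the electron transfer genes, ETFA was occupied with PPARα+ERα and PPARα+ERβ, ETFB with PPARα and PPARα+ERβ, and ETFDH with PPARα. Over all genes, 60.5, 38.0 and 46.6% were occupied with PPARα, PPARα+ERα and PPARα+ERβ. A few genes allow no reading of a difference between them, and none was tested. At ETFA, the region over the capitals printed above (chr15:76311605-76311947) had its summit 338 bp before the start and held 24 and 23 fragments in the PPARα+ERα libraries, with fold 8.83 and 8.08 on a background of 4.70 times the lowest level in both. None of the other 4 libraries had a peak there. A separate region 23810 bp away was occupied with PPARα+ERβ (14 and 25 fragments). ETFB, the beta subunit, had a region 30575 bp away with 24 and 24 fragments in PPARα and 17 and 43 in PPARα+ERβ libraries, and no PPARα+ERα peak within 50 kb. ETFDH, the membrane dehydrogenase that passes the electrons to ubiquinone, had PPARα regions inside the gene (9 and 13 fragments) and 28330 bp outside it (45 and 62). The first of these also held 10 fragments in PPARα+ERβ library 1.

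HADHA and HADHB encode the alpha and beta subunits of the mitochondrial trifunctional protein and run in opposite directions from starts 306 bases apart. Per gene they had the most peaks of the list, 2 to 5 per library each (25 and 26 in all, then ACADL with 20). Like-span genes of HADHA averaged 1.28 to 2.67 per library. Their windows overlap and every region near HADHA also counted for HADHB, so these are largely the same peaks. A region inside HADHA (chr2:26206796-26207335) held 28 and 50 fragments with PPARα and 22 and 39 with PPARα+ERβ, and 8 in PPARα+ERα library 2 alone. Fold was 7.46 and 11.9 with PPARα, and 5.91 and 8.98 with PPARα+ERβ. Nearest the shared start region, 2912 bp into HADHA, stood a PPARα+ERα region (chr2:26241476-26241935) with 13 and 12 fragments and fold 8.86 and 8.01, and with no peak in the other 4 libraries. In HADHB, 10697 bp from its start, PPARα held 79 and 120 fragments and PPARα+ERβ library 1 held 70, all on a background of 44.7 to 45.8 times the lowest level. Farther into HADHB, at 28288 bp, a region was occupied with PPARα+ERβ (23 and 26 fragments) and held 21 in PPARα library 1. A region 19114 bp into HADHA held 72 and 98 fragments with PPARα and 80 in PPARα+ERβ library 2.

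**Figure D5:**
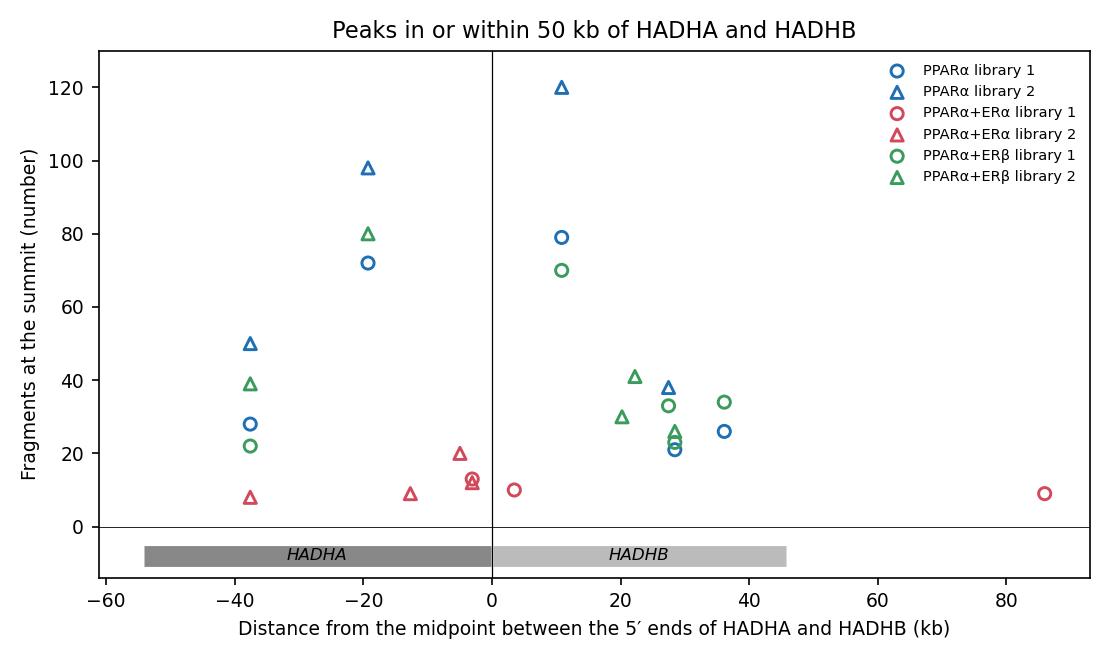
Peaks in or within 50 kb of HADHA and HADHB, by distance from the midpoint between their 5′ ends (x, kb) and fragments at the summit (y), with colours for groups, shapes for libraries and bars for the gene spans. The PPARα+ERα points, between 8 and 20 fragments, are the only ones within 10 kb of the midpoint.

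Later and auxiliary steps gave mostly PPARα and PPARα+ERβ regions, as did the genome as a whole. There, 17597 regions were occupied in the PPARα group, 10204 in the PPARα+ERβ group and 8866 in the PPARα+ERα group. Whether these steps differ from the genome was not tested. HADH, the short-chain hydroxyacyl-CoA dehydrogenase, had a PPARα region 7127 bp into the gene (25 and 64 fragments) that also held 44 in PPARα+ERβ library 2. ACAA2, the mitochondrial thiolase, had one near its 3′ end (chr18:49782549-49783019) with only 11 and 7 fragments and 8 in PPARα+ERβ library 2, at a background of 1.21 to 1.23 times the lowest level. Near ECI1, an enoyl-CoA isomerase of mitochondria, a region 21291 bp away held 51 and 98 fragments with PPARα and 44 and 54 with PPARα+ERβ. PPARα+ERα regions lay at 13786 bp, in RNPS1 (11 and 5 fragments), and at 28028 bp, in ABCA3 (8 and 11). A PPARα region at 12176 bp, also in RNPS1, held 26 and 60 fragments, and 22 in PPARα+ERβ library 2.

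ECI2, a related isomerase found also in peroxisomes, had a region within the gene with 51 and 59 fragments in PPARα and 42 and 60 in PPARα+ERβ libraries, and a PPARα+ERα region 29127 bp away (9 and 10 fragments). Further PPARα regions of ECI2 lay at 15385 bp (50 and 72 fragments, with 49 in PPARα+ERβ library 2) and at 37122 bp (57 and 66, with no peak elsewhere). ECH1, which shifts double bonds during oxidation of unsaturated chains, had the only region inside any of the 29 genes that was occupied with PPARα+ERβ and held no peak in the other 4 libraries. It lay 799 bp from an end of the gene (chr19:38830957-38831305) and held 62 and 94 fragments at a background of 27.2 and 25.6 times the lowest level. The strand of ECH1 was not on hand, so whether that end is its start is not given, and ECH1 was left out of the distances to starts. DECR1, the dienoyl-CoA reductase, had 2 regions shared by PPARα and PPARα+ERβ. The one 7635 bp outside the gene (chr8:89993441-89993891) held 24 and 40, and 29 and 49 fragments, with a further 22 in PPARα+ERα library 2, which makes it the list's one region with over 20 fragments in a library of each group. The other, inside DECR1, held 50 and 51 fragments with PPARα and 35 and 56 with PPARα+ERβ.

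Of the 5 peroxisomal genes, 3 were occupied in the PPARα group, 1 when ERα was present and 1 when ERβ was, beside 60.5, 38.0 and 46.6% of all genes. So few genes allow no reading of a difference between groups, and none was tested. HSD17B4, the peroxisomal bifunctional enzyme for branched chains, had a PPARα region 7277 bp into the gene (46 and 77 fragments) with no peak in the other groups. EHHADH, the bifunctional enzyme for straight chains, had one 44485 bp away in C3orf70, with 10 and 10 fragments. ACOX2, a branched-chain acyl-CoA oxidase, had a region 14531 bp away with 60 and 46 fragments in PPARα and 50 and 56 in PPARα+ERβ libraries.

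ACAA1, the peroxisomal thiolase, had 3 peaks in each PPARα+ERα library and 0 in the other 4 libraries. One region of these was occupied, 8541 bp from the gene (8 and 8 fragments). PEX11A, a factor of peroxisome proliferation, likewise had 2 and 1 PPARα+ERα peaks and 0 elsewhere, and none was occupied. These counts rest on summits of 5 to 12 fragments.

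The cytosolic thioesterase gene ACOT1 had a region 45076 bp away in NUMB with 26 and 24 fragments in PPARα, 20 and 25 in PPARα+ERβ and 10 in PPARα+ERα library 1. A PPARα region 34950 bp away held 72 and 96 fragments and no other library had a peak there. Its mitochondrial relative ACOT2 had 1 to 3 peaks per library and no occupied region. The omega-hydroxylase genes had almost none: 0 peaks for CYP4A11 in all 6 libraries, and 2 peaks in PPARα library 1 alone for CYP4A22 (8 and 50 fragments).

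Differences between groups were counted as regions with a peak in both libraries of one group and in neither library of the other. The PPARα+ERα group differs from PPARα in the added receptor, in its agonist PPT and in the libraries themselves. The PPARα+ERβ group differs likewise, with DPN. These cannot be told apart here. PPARα+ERα had such regions near 10 of the 29 genes (34.5%), beside 36.7% of all genes, and PPARα near 19 (65.5%), beside 58.9%. The gene names were those occupied in each group, and they overlapped: ACADM, ACADL, HADHA, HADHB, SLC25A20, CPT1A, ECI1 and ECI2 stood on both sides. Of the 30 PPARα regions in this comparison, 25 had a mean background above 3 times the lowest level, against 3 of the 16 PPARα+ERα regions. With low-background peaks alone, PPARα regions were counted near 5 genes (17.2%, beside 13.1% of all genes) and PPARα+ERα regions near 9 (31.0%, beside 29.7%), so the direction turned for these genes and for all genes. That filter kept 16.0 and 12.8% of the PPARα lists and 74.3 and 76.9% of the PPARα+ERα lists. The PPARα+ERα number was 20 or 19 without library 1 or 2 of that group, under a rule then looser for every gene and with no share of all genes given.

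With PPARα+ERβ in place of PPARα+ERα, fewer regions differed from PPARα. PPARα+ERβ had regions of its own near 2 genes, ETFA and ECH1 (6.90%, beside 10.8% of all genes). PPARα had them near 7 (24.1%, beside 25.3%): CPT1A, ACADM, ETFDH, ECI2, EHHADH, HSD17B4 and ACOT1. These numbers depended on which library was used. The first was 5 without PPARα library 1, and 13 or 8 without PPARα+ERβ library 1 or 2. The second was 20 or 12 without PPARα library 1 or 2, and 12 or 13 without PPARα+ERβ library 1 or 2. Leaving out a library loosens the rule for every gene, and the shares of all genes are not given for these numbers.

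Between the co-transfected groups, regions that both PPARα+ERα libraries had and neither PPARα+ERβ library had lay near 10 genes (34.5%, beside 35.5% of all genes), and the reverse near 15 (51.7%, beside 43.0%). Leaving out PPARα+ERα library 1 or 2 gave 21 or 19 for the first, and leaving out PPARα+ERβ library 1 gave 24 for the second. Here too the rule was then looser for every gene, and no share of all genes is given. The comparisons with PPARα share its libraries, and each pair of comparisons shares a group, so the lists of genes are not independent of one another. With 2 libraries against 2, no two-sided permutation p below 0.333 is possible, and none is given.

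Another 33 genes related to fatty acid oxidation and its control, including activation and ketone body formation, were counted in the same way. All were matched in the table. An occupied region lay in or within 50 kb of 18 of them in the PPARα group (54.5%, beside 60.5% of all genes), 12 in the PPARα+ERα group (36.4%, beside 38.0%) and 18 in the PPARα+ERβ group (54.5%, beside 46.6%). PPARA, the gene of the precipitated receptor, was counted among them and was occupied with PPARα and with PPARα+ERβ. PHYH, which starts alpha-oxidation of branched chains, and SCP2, a sterol carrier and thiolase, were among those occupied in every group. PHYH had 2 and 5 peaks in the PPARα libraries, 3 and 2 when ERα was present, and 2 and 2 when ERβ was.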

How the data were processed

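Of 7 samples, 6 libraries were analysed through their peak lists. Per the submitters' processing notes, the tools included MACS2 2.2.7.1 and, with no role stated here, DiffBind 2.16, Bowtie 1.0.1, HOMER 4.11, Trim Galore 0.6.4, and ChIPseeker 1.18.0, with builds hg38 and GRCh38.p13; the control used for peak calling is not given in the sources used here. The deposited lists are 1 per library. The deposited values of each peak are a fold over local background (a ratio), −log10 p-value and −log10 q-value at the summit, a score (that −log10 q multiplied by 10, decimals dropped), and the summit's offset. Fold, p and q are the authors' own. Fold is printed for more than 1 group but ranks peaks within a list only. One alternative applied the same q limit to every list, and the fragment numbers compared between groups were solved from fold and p. Sequencing depth is unknown.

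Regions were formed by merging peaks with at least 1 bp in common (chromosomes 1 to 22 and X). Fragments and local background were solved from fold and p for 100% of peaks (tolerance 0.001). The background is given as a multiple of a level near the lowest in its list, called the lowest level. The gene table and promoters are RefSeq's (GRCh38.p14). Each occupied region of a member is given with its fragments, and members without one by counts. The members and lists were chosen with earlier results of these data known. Group values per library were compared by an exact permutation test; counts of genes were set beside all genes and like-span genes without a test. Alternatives were windows of 10 and 100 kb, −log10 q of at least 5, lists cut to 17457 peaks, summits within 150 bp, peaks with a background of at most 3 times the lowest level, and each library left out. The scripts used SciPy 1.17.1, NumPy 2.4.6, pandas 2.3.3 and, for figures, Matplotlib 3.10.9 under Python 3.11.15, and were tested on simulated data. Some results among the other pathway genes are not reported here.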

Additional observations from a re-analysis of the deposited data

How the results depend on the processing

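Across alternatives, 54 counts of genes stayed within 1.5 times the reported count and 30 moved further. Beside each count stands its share and, after a slash, the share of all genes, except for counts with a library left out, where neither is given. With a 10 kb window, PPARα+ERβ was occupied near 7 genes (24.1/25.3%), PPARα+ERβ over PPARα gave 1 (3.45/5.22%), PPARα over PPARα+ERβ 3 (10.3/13.1%) and PPARα+ERβ over PPARα+ERα 6 (20.7/22.8%). With 100 kb, PPARα+ERα was occupied near 16 (55.2/52.8%), PPARα+ERα gave 16 over PPARα (55.2/51.3%) and 16 over PPARα+ERβ (55.2/49.8%), and PPARα+ERβ over PPARα gave 4 (13.8/17.0%). That last count was 1 (3.45/7.39%) with −log10 q of at least 5 and 6 (20.7/16.2%) with lists of equal length. With low-background peaks alone, PPARα was occupied near 5 (17.2/15.6%) and PPARα+ERβ near 1 (3.45/14.0%), PPARα over PPARα+ERα gave 5 (17.2/13.1%), PPARα+ERβ over PPARα 0 (0/3.54%), PPARα over PPARα+ERβ 1 (3.45/3.28%) and PPARα+ERβ over PPARα+ERα 1 (3.45/10.2%). Fewer peaks enter under that setting by construction. Leaving out 1 library, where the other then counts alone, gave ranges of 22 to 25 genes occupied with PPARα, 19 to 22 with PPARα+ERα and 19 to 24 with PPARα+ERβ. The ranges for differing regions were 10 to 20 for PPARα+ERα over PPARα, 19 to 25 for PPARα over PPARα+ERα, 3 to 13 for PPARα+ERβ over PPARα, 12 to 20 for PPARα over PPARα+ERβ, 10 to 21 for PPARα+ERα over PPARα+ERβ and 15 to 24 for PPARα+ERβ over PPARα+ERα. No paired analysis was possible because the counts come from no test and the labels do not tie libraries across groups. The unknown depth limits what an uncalled region shows: no call is not absence of binding.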

Other observations

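Called peaks near these genes often shared an exact boundary between libraries. Of the occupied regions near fatty acid oxidation genes, 27 of 33 with PPARα (81.8%), 13 of 16 with PPARα+ERα (81.3%) and 15 of 18 with PPARα+ERβ (83.3%) had the same first or last base in both libraries, beside 88.2, 76.2 and 86.9% of all occupied regions. Between groups the share varied. PPARα library 1 and PPARα+ERβ library 1 shared 21 of these regions, 19 of them with a common edge base (90.5%, beside 87.8% of all regions they shared), and the other pairs of PPARα with PPARα+ERβ libraries had one in 83.2 to 87.9% of all shared regions. Pairs with a PPARα+ERα library shared at most 3 of these regions, and had a common edge in 50.3 to 65.7% of all shared regions. Over all shared regions, PPARα library 2 and PPARα+ERβ library 2 had the same summit base in 70.0%, while PPARα libraries 1 and 2 had it in 25.3%. The cause was not tested.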
